A study of Mus musculus with 22 samples.

Results

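The genes described here are the 7 subunit genes of the NMDA receptor (Grin1, Grin2a, Grin2b, Grin2c, Grin2d, Grin3a and Grin3b) and the genes of both enzymes that set the level of its coagonist D-serine, Srr and Dao. They were taken by gene symbol from a table of 37786 genes, and all 9 were found. Of these, 7 passed the minimum for testing (at least 10 counts in at least 10 mice), as did 17524 genes of the table, while Grin3b and Dao did not. The counts come from bulk RNA sequencing of the anterior cingulate cortex (ACC), a frontal region tied to pain affect and mood, in 22 wildtype adult male C57BL/6J mice, of which 12 were controls (ctrl) and 10 were stimulated (stim). In every mouse an AAV5 vector had placed the light-gated channel ChR2(H134R), fused to EYFP and driven by the CaMKIIa promoter, in the basolateral amygdala (BLA) on both sides, and an optic fibre had been placed in the ACC. Stimulated mice received blue light on the BLA terminals over 9 sessions, and in the controls the light stayed off. The CaMKIIa promoter limits the channel mainly to excitatory projection neurons, the fibre was on one side only while the ACC was dissected on both, and each library is 1 mouse.

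The NMDA receptor is a glutamate-gated cation channel that opens only when glutamate and a coagonist are both bound and when depolarization has expelled magnesium from its pore, which makes it a detector of coincident activity and a trigger of synaptic plasticity. Each receptor is a tetramer that must hold the GluN1 subunit, encoded by Grin1, which binds the coagonist glycine or D-serine. GluN2 subunits, encoded by Grin2a to Grin2d, bind glutamate and set the speed of closing and the sensitivity to magnesium, and GluN3 subunits, encoded by Grin3a and Grin3b, bind glycine and lower calcium entry. In the forebrain GluN2B prevails early in life and GluN2A joins it as synapses mature. Serine racemase, encoded by Srr, makes D-serine from L-serine, and D-amino acid oxidase, encoded by Dao, degrades it.

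Total counts per library ranged from 24563116 to 36542883 in controls and from 23090483 to 43668462 in stimulated mice. The study fitted batch and RNA integrity as covariates, which are not among the labels, and RNA integrity was not fitted here. Library numbers, which do appear there, run in blocks of controls followed by stimulated mice, so those up to 11 (6 controls, 4 stimulated) and those from 12 to 23 (6 controls, 6 stimulated) were treated as 2 runs. The labels do not state that these runs are the batch, and the study's own list of batches was not used here. Mitochondrial genes took on average 2.66% of the counts in numbers 1 to 11 and 1.32% in numbers 12 to 23, and less in stimulated mice than in controls in both (2.25% against 2.93%, and 1.18% against 1.46%, with no test). Markers of excitatory neurons, summed over 6 genes, lay between 1475 and 3513 CPM (counts scaled to library size) in every mouse, as the cortical label implies, and 0 of the 6 were at 0 in all mice. Summed markers of striatal projection neurons lay between 116 and 187 CPM. Those of the choroid plexus reached 134 CPM in the controls, against at most 17.7 CPM in stimulated mice. Markers of oligodendrocytes reached 18568 CPM in the controls, against at most 5504 CPM in stimulated mice. Controls 9 and 11 had the highest values, so some results are also given without them. These are the members' group differences over both runs, their ratios and part of the correlations. The subunit shares, values within each run, run differences and pathway lists are given only with them. Mice were housed singly after the fibre was placed, and the labels do not say whether replicates shared a litter, so the p-values measure the spread between these mice.

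The subunit genes lie apart in the genome (GRCm38, GENCODE M21), all but Grin3b on the minus strand. Grin1 covers chr2:25291181-25319187, Grin2a chr16:9567898-9995560, Grin2b chr6:135713233-136173511, Grin2c chr11:115249169-115267243, Grin2d chr7:45831883-45878378, Grin3a chr4:49661611-49845744 and Grin3b chr10:79970715-79977190. Srr covers chr11:74906359-74925948 on the minus strand and Dao chr5:114003703-114025682 on the plus strand. Exons of some members overlap a gene on the opposite strand, and since the strand setting of the counting is not given in the sources used here, reads of both genes cannot be told apart there. The overlap was 32.1% of the exonic bases of Grin3b (with Tmem259), 27.2% of those of Srr (with Tsr1), 13.5% of those of Grin1 (with Grin1os) and 9.66% of those of Grin2d (with Gm45441), and at most 1.81% with any single gene for Grin2b and Grin2c.

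RefSeq promoters of GRCm38.p6 were at hand for 6 of the 9 members. The 250 bases before the start of transcription are shown for 3 subunit genes that differ in level and in behaviour across mice below, namely the obligatory subunit gene with the highest level (Grin1), the subunit gene with negative correlations to most others (Grin2c) and the subunit gene near 0 (Grin3b). Capitals mark CG dinucleotides, the sites of most DNA methylation in mammals. The Grin1 window is chr2:25319188-25319437 (minus strand), the Grin2c window chr11:115267244-115267493 (minus strand) and the Grin3b window chr10:79970474-79970723 (plus strand), each written 5′ to 3′.
Grin1: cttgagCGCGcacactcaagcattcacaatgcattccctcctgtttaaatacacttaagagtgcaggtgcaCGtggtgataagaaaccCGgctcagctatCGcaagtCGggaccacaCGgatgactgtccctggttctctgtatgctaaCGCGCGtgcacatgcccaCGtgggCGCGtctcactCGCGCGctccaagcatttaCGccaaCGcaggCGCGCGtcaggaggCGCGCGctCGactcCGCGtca
Grin2c: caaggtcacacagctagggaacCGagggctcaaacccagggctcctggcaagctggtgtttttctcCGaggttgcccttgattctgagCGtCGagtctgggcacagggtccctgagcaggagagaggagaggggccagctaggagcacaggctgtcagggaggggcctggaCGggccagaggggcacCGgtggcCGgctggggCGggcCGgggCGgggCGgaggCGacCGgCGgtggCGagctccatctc
Grin3b: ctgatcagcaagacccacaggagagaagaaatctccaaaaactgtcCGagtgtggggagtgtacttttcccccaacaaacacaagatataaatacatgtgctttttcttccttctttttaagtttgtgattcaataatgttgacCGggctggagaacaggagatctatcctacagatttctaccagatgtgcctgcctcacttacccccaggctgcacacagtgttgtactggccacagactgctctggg
The Grin1 window held 27 CG dinucleotides, more than 91.4% of 32851 RefSeq promoter windows of the same length, and that of Grin2c held 15, more than 72.7%. The Grin3b window held 2, against a median of 6 over all windows, and the window of Srr held 26. The letters GGGCGG, known as a GC box, occurred on either strand 3 times in Grin2c and 4 times in Srr and in 0 of the windows of Grin1, Grin2d and Grin3b, and 2 times in 1 of the 3 windows of Dao, against 32.7% of all windows. Grin3b held 1 TATAAA, found in 12.4% of all windows, and Grin1 held 2 copies of the E-box letters CACGTG, found in 6.02%, and 1 window of Dao held 1 copy. These counts describe the letters in these windows only.

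Levels of different genes were compared as RPKM (reads per kilobase of exon, scaled to library size), with the union of all annotated exons as length. Grin1 was highest among the members, at 19.1 ± 5.86 RPKM (SD, n = 22 mice), followed by Srr at 15.7 ± 2.53. Grin2c (8.03 ± 3.23), Grin2b (7.68 ± 1.64), Grin2a (5.88 ± 1.17) and Grin3a (5.55 ± 2.30) formed a middle range, and Grin2d was lower at 1.43 ± 0.300 RPKM. The order of several neighbours was not the same in all mice. Grin1 exceeded Srr in 15 of 22 mice, 12 of them all the mice of library numbers 12 to 23 and 3 of the 10 mice of numbers 1 to 11. Grin2c exceeded Grin2b in 12 of 22, which were 3 of 10 mice in numbers 1 to 11 and 9 of 12 in numbers 12 to 23. Grin2a exceeded Grin3a in 11 of 22, which were 10 of 10 mice in numbers 1 to 11 and 1 of 12 in numbers 12 to 23. With the longest transcript as length the mean of Grin1 was 43.2 RPKM and that of Grin3a 9.09, which put Grin3a above Grin2c (8.26), Grin2b (7.93) and Grin2a (7.21).

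**Figure D1:**
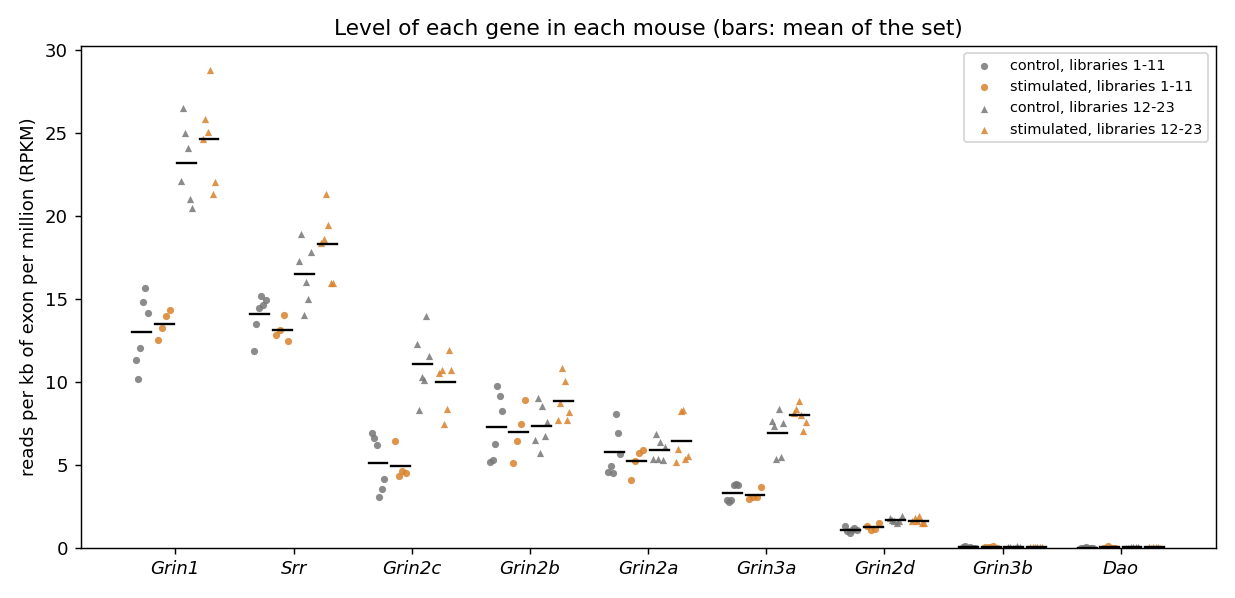
Level of the 9 genes in each of the 22 mice, in RPKM (reads per kilobase of exon, scaled to library size) on a linear axis, with genes ordered by their mean. Grey marks are controls, orange marks stimulated mice, circles libraries 1 to 11 and triangles libraries 12 to 23, and bars are means of each set. Within each run the marks of both groups overlap for the 7 genes above the minimum, while the circles and triangles of Grin1, Grin2c and Grin3a are apart.

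Grin3b and Dao were close to 0. Grin3b, best known from motor neurons, had 0 to 9 counts per library, 69 over all 22 mice, with 0 counts in 4 controls and 1 stimulated mouse. Dao, whose enzyme is best known from the cerebellum and kidney, had 31 counts over all mice, with 0 in 6 controls and 3 stimulated mice and a highest value of 9 counts in 1 stimulated mouse, replicate 2. A floor of 3 counts corresponds to between 0.0699 and 0.137 CPM in these libraries, for counting error only. The mean of both groups lay within or under this range for both genes, so no fold change is given. In a fit with no count minimum the adjusted p was 0.830 for Grin3b and 0.713 for Dao (edgeR).

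The mixture of GluN2 subunit genes was described as the share of each in the summed RPKM of Grin2a to Grin2d. Grin2a made up 25.9%, Grin2b 33.7%, Grin2c 34.2% and Grin2d 6.22% on average over the 22 mice. With the longest transcript as length these shares were 29.0%, 31.8%, 32.2% and 6.98%. The order rests on the lengths, since the mean CPM was 191 for Grin2b (24842 exonic bases) and 40.4 for Grin2c (5037). How evenly reads covered these lengths was not examined. Grin2c varied most, from 13.9% to 50.7% of the sum in single mice, and Grin2d ranged from 4.94% to 7.81%. In numbers 1 to 11 the mean shares were 29.1% for Grin2a and 37.5% for Grin2b, and in numbers 12 to 23 they were 23.2% and 30.5%. The share of Grin2c in single mice lay between 13.9% and 38.6% in the former and between 26.6% and 50.7% in the latter. Since the runs hold unequal numbers of both groups, the groups were set side by side within each run, with no test. In numbers 1 to 11 the mean shares in controls and stimulated mice were 29.6% and 28.3% for Grin2a, 37.5% and 37.6% for Grin2b, and 27.2% and 27.3% for Grin2c. In numbers 12 to 23 they were 22.7% and 23.8% for Grin2a, 28.2% and 32.8% for Grin2b, and 42.6% and 37.3% for Grin2c. Grin2d went opposite ways, from 5.70% in controls to 6.82% in stimulated mice in the former and from 6.49% to 6.08% in the latter.

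The comparison of stimulated with control mice asks whether repeated driving of BLA terminals goes with another level of these transcripts in the ACC. No difference between the groups passed the test for any of the 7 members tested, with 0 at an adjusted p under 0.05 and 0 at an unadjusted p under 0.05 (edgeR quasi-likelihood test with the run as a covariate, Benjamini-Hochberg over 17524 genes). Over all genes 0% were called at the adjusted threshold and 11.5% had an unadjusted p under 0.05. The DESeq2 Wald test called 33 genes, and 0 of the 7 members. Of the members 6 of 7 had a log2 fold change above 0, against 52.6% of all genes tested, with a median of 0.066 against 0.0093 over all genes. Without controls 9 and 11 only 3 of 7 were above 0 and the median was -0.014. CPM ranges of the groups overlapped for all 7 members, as they did for all but 1 of the 17524 genes (0.00571% did not overlap).

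Grin1, the obligatory subunit, had 98.8 to 257 CPM in controls (median 175) and 121 to 279 in stimulated mice (median 210). In numbers 1 to 11 the 6 controls lay between 98.8 and 152 CPM and the 4 stimulated mice between 121 and 139, inside the range of the controls. In numbers 12 to 23 the controls lay between 198 and 257 CPM and the stimulated mice between 207 and 279. The groups thus overlapped in both runs, and the log2 fold change was 0.071 ± 0.072 (SE, 95% interval -0.078 to 0.22, or -5.30% to 16.5% in percent, adjusted p = 0.724, edgeR).

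Grin2a, the subunit of mature and fast-closing receptors, had 80.6 to 145 CPM in controls (median 98.4) and 73.1 to 149 in stimulated mice (median 101). Its log2 fold change was 0.0092 ± 0.11 (95% interval -0.22 to 0.24, adjusted p = 0.984, edgeR), the smallest in size among the members. Grin2b, the subunit of slow-closing receptors that prevail in the young forebrain, had 128 to 242 CPM in controls (median 178) and 126 to 269 in stimulated mice (median 197). It showed the largest log2 fold change of the 7, 0.12 ± 0.12 (95% interval -0.13 to 0.37, adjusted p = 0.718, edgeR), but was at 0.037 without controls 9 and 11, where that of Grin2c was larger in size (-0.072). In numbers 12 to 23 each of the 6 stimulated mice exceeded the median of the controls, with 191 to 269 CPM against 141 to 225, and in numbers 1 to 11 this held for 2 of 4. The median in numbers 12 to 23 includes controls 9 and 11, at 141 and 167 CPM, and the comparison was not repeated without them.

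Because receptor properties depend on the mixture, 6 log2 ratios of member genes were also compared mouse by mouse, with labels exchanged within the runs (two-sided permutation test, 100000 resamples). The ratio of Grin2a to Grin2b differed most between groups relative to its spread. On the scale of CPM the 12 controls averaged -0.79 ± 0.14 (SD) in log2 and the 10 stimulated mice -0.92 ± 0.13. The mean within-run difference of -0.13 had a permutation p of 0.0501 and an adjusted p of 0.301 over the 6 ratios. It was -0.072 in numbers 1 to 11 and -0.17 in numbers 12 to 23. Without controls 9 and 11 the difference was -0.097, with an adjusted p of 0.318 (permutation). The other 5 ratios (Grin2b to Grin1, Grin2a to Grin1, Grin2d to Grin2b, Grin3a to Grin1 and Srr to Dao) had a permutation p of at least 0.413 and an adjusted p of 0.777, and the last rests on the prior count of 2 that was added to the few counts of Dao (-0.16, but -0.36 with a prior count of 0.5 and -0.37 without controls 9 and 11).

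**Figure D2:**
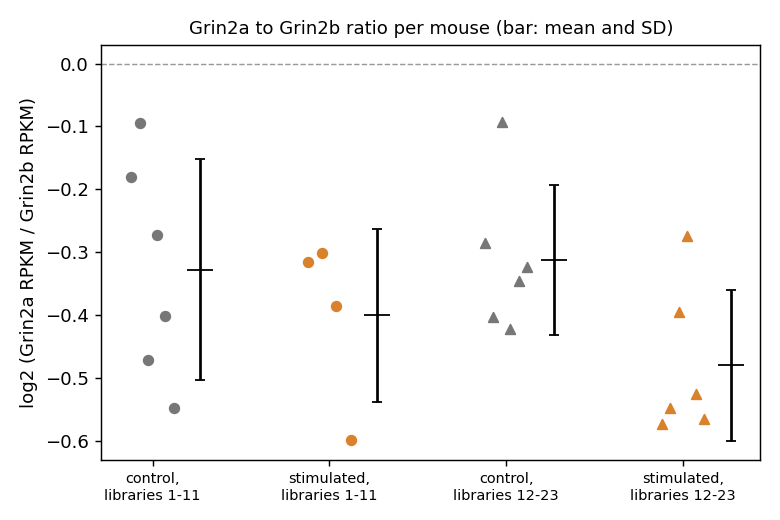
Log2 ratio of the Grin2a level to the Grin2b level (both in RPKM) in each mouse, by group and run of library numbers. Points are mice and bars are the mean and SD of each set, with n = 6, 4, 6 and 6 from left to right. With the union of exons as length all 22 mice lie below 0, which marks equal levels (19 of 22 with the longest transcript), and the sets overlap.

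Grin2c, whose transcript is best known from cerebellar granule cells and in the forebrain from astrocytes, was the only tested member with a log2 fold change below 0. It had 15.4 to 70.4 CPM in controls (median 38.4) and 21.7 to 60.1 in stimulated mice (median 39.9). The difference with the run fitted was -0.10 ± 0.13 (95% interval -0.37 to 0.16, adjusted p = 0.786, edgeR). Controls of numbers 1 to 11 were split, with 3 mice between 31.2 and 34.9 CPM and the other 3 between 15.4 and 20.8, so that the stimulated mice of that run (32.2, 21.7, 23.3 and 22.5 CPM) lay within their range. Grin2d, which in the cortex is best known from interneurons, had 5.86 to 12.6 CPM in controls and 7.29 to 12.8 in stimulated mice, with a log2 fold change of 0.066 ± 0.082 (adjusted p = 0.780, edgeR). All 4 stimulated mice of numbers 1 to 11 exceeded the median of their controls, but in numbers 12 to 23 this held for 2 of 6.

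Grin3a, which encodes a subunit that lowers calcium entry and restrains synapse maturation, had 33.5 to 102 CPM in controls (median 56.3) and 35.9 to 109 in stimulated mice (median 89.5). The values followed the run, which holds unequal numbers of both groups, with 33.5 to 46.8 CPM in all mice of numbers 1 to 11 and 65.7 to 109 in all mice of numbers 12 to 23. With the run fitted the difference was 0.089 ± 0.087 (95% interval -0.089 to 0.27, adjusted p = 0.707, edgeR). In numbers 12 to 23 the lowest values, 65.7 and 66.9 CPM, were those of controls 9 and 11. Srr had 54.1 to 86.2 CPM in controls (median 68.3) and 56.9 to 97.3 in stimulated mice (median 72.8), with a difference of 0.037 ± 0.067 (95% interval -0.10 to 0.17, adjusted p = 0.861, edgeR). In numbers 1 to 11 none of the 4 stimulated mice exceeded the median of the controls, whereas in numbers 12 to 23 this held for 4 of 6.

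**Figure D3:**
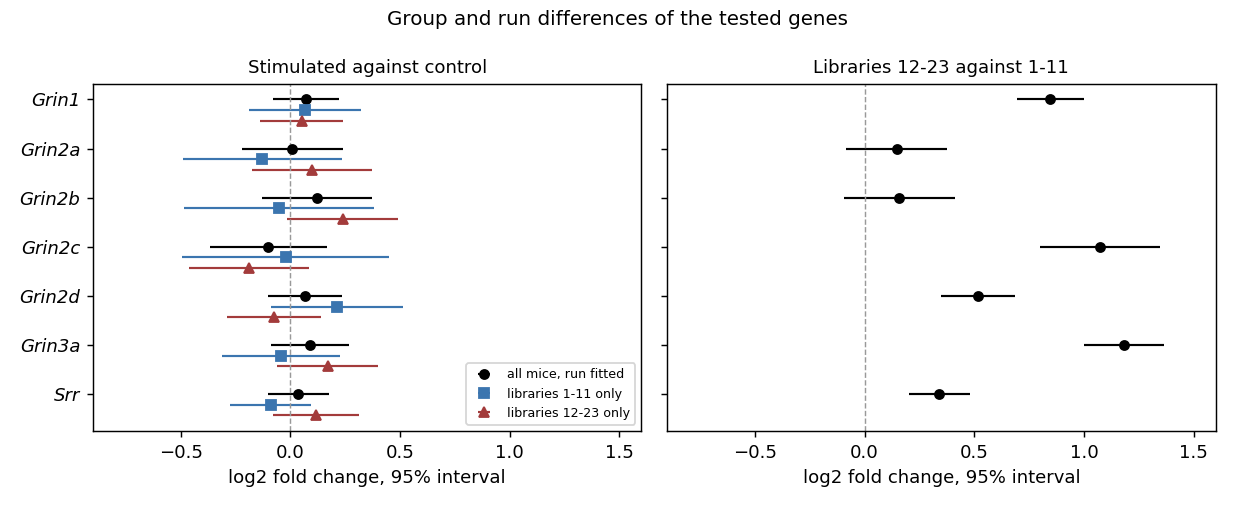
Log2 fold changes of the 7 tested genes with 95% intervals, for stimulated against control mice (left) and for libraries 12 to 23 against 1 to 11 (right), from edgeR. On the left black circles are all mice with the run fitted, blue squares libraries 1 to 11 and red triangles libraries 12 to 23, and all these intervals include 0. On the right the intervals of Grin2a and Grin2b include 0 and those of the other 5 genes lie above it.

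Within each run tested alone, 0 of 7 members passed the adjusted threshold (0% of all genes in either run). The direction differed between the runs for several members. Log2 fold changes in numbers 1 to 11 and 12 to 23 were -0.13 and 0.098 for Grin2a, -0.051 and 0.24 for Grin2b, 0.21 and -0.075 for Grin2d, -0.044 and 0.17 for Grin3a and -0.091 and 0.11 for Srr. Grin1 was above 0 in both runs (0.065 and 0.052) and Grin2c below 0 in both (-0.022 and -0.19). A test of the difference between the runs called 0 of the 7 members and 0% of all genes (edgeR interaction term). The smallest adjusted p among the members was 0.632, for Srr.

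The runs themselves differed in most members. Of the 7 tested, 5 were higher in numbers 12 to 23 at an adjusted p under 0.05 and 0 were lower, against 68.1% of all genes called and 33.7% called higher, so 5 of 7 called is near the background. Grin3a was 2.27-fold higher (adjusted p = 1.08e-11, edgeR), Grin2c 2.11-fold (7.51e-08), Grin1 1.80-fold (1.63e-10), Grin2d 1.43-fold (4.36e-06) and Srr 1.27-fold (7.46e-05). Grin2a and Grin2b, at 1.11-fold and 1.12-fold, did not pass the threshold (adjusted p = 0.248 and 0.258). The CPM ranges of the runs did not overlap for Grin1, Grin2c and Grin3a, 3 of the 7, against 26.1% of all genes. The log2 ratio to Grin1 also differed between the runs, by -0.66 for Grin2b and by -0.70 for Grin2a, from numbers 1 to 11 to numbers 12 to 23. Other measures moved with the runs as well. Between numbers 1 to 11 and 12 to 23 the median of the summed markers went from 1733 to 3189 CPM for excitatory neurons, from 1453 to 2354 for astrocytes and from 942 to 755 for inhibitory neurons, while for oligodendrocytes it was 3939 and 4088, and the mitochondrial share differed as given above. Their part in the values of the members was not tested.

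How the members varied together was described after centring log2 CPM within each of the 4 sets of run and group, so that neither difference enters, with permutation within these sets (20000 resamples, two-sided). Grin1, Grin2a, Grin2b, Grin3a and Srr varied together from mouse to mouse, except that Grin1 and Srr missed the adjusted threshold (0.0511), and Grin2c ran against these 5. Of the 21 pairs among the 7 members, 14 (66.7%) had an adjusted p under 0.05 (Benjamini-Hochberg over the 21). The smallest r of these 14 was 0.57 in size, which 13.3% of all pairs among 14525 genes reached or passed, a description with no test. All values of 1 mouse come from 1 library and are shares of the same total. Grin2a and Grin2b correlated at r = 0.89 (Spearman's rho = 0.90, permutation p = 5e-05 for both, the smallest the resamples can give, adjusted p = 0.000525 and 0.00035), and at 0.88 without the 2 mice farthest from the median. Within numbers 1 to 11 the same r was 0.91 and within 12 to 23 it was 0.88. Grin2c and Grin2a correlated at r = -0.89 (rho = -0.89, permutation p = 5e-05 for both, adjusted p = 0.000525 and 0.00035), with -0.86 without the 2 farthest mice and -0.94 and -0.84 in the runs. Grin2c against Grin1 gave r = -0.85 (rho = -0.85, permutation p = 0.0002 for both, adjusted p = 0.00105 for both), with -0.84 without the 2 farthest mice and -0.91 and -0.76 in the runs. In some pairs the r of the runs lay apart, a difference that was not tested, with 0.92 in numbers 1 to 11 and 0.21 in 12 to 23 for Grin1 and Grin3a, 0.92 and 0.45 for Grin1 and Grin2b, and -0.88 and -0.43 for Grin2c and Grin3a. Without controls 9 and 11, which are both in numbers 12 to 23, the r over both runs was 0.77, 0.83 and -0.79 for these pairs, against 0.57, 0.74 and -0.67 with them. Grin2d had r between -0.069 and 0.31 with the other 6 members, and none of these pairs passed the adjusted threshold. It had the fewest counts of the 7, 195 to 437 per library, and the part of counting error in its low r was not tested. With Srr its r was -0.56 in numbers 1 to 11 and 0.60 in numbers 12 to 23.

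The same centred values were set against summed markers of 4 cell types, 28 relations in all, of which 21 had an adjusted p under 0.05 (Benjamini-Hochberg over the 28, permutation), with no test of what links them. How often other genes relate this closely to these lists was not computed. The count can therefore not be read as a trait of the members. Excitatory neuron markers had r = 0.75 with Grin1, 0.80 with Grin3a and -0.70 with Grin2c. Grin2c followed the 6 astrocyte markers (Aqp4, Gja1, Aldh1l1, Slc1a3, Gfap and Fgfr3) at r = 0.91 (rho = 0.91, permutation p = 5e-05 for both, adjusted p = 0.0007 and 0.000467), with 0.88 without the 2 mice farthest in the markers and 0.93 and 0.87 in the runs. It also had r = 0.54 with the oligodendrocyte markers, and 0.80 without controls 9 and 11. Grin1 ran against the astrocyte markers at r = -0.90 (rho = -0.90, permutation p = 5e-05 and 0.0001, adjusted p = 0.0007 for both), with -0.94 without the 2 farthest mice and -0.95 and -0.82 in the runs. Grin2a and Grin2b had r = -0.79 and -0.80 with the astrocyte markers. Grin3a ran against the 6 oligodendrocyte markers at r = -0.87 (rho = -0.83, permutation p = 0.0001 and 5e-05, adjusted p = 0.000933 and 0.000467), with -0.81 without the 2 farthest mice, -0.77 without controls 9 and 11, and -0.80 and -0.95 in the runs. With the astrocyte markers Grin3a had r = -0.64 in all mice and -0.88 without controls 9 and 11, so which list it followed most closely depended on these mice. In bulk tissue fewer cells of a type and less RNA per cell cannot be told apart. Between the groups, summed astrocyte markers ranged from 1174 to 3036 CPM in controls and from 1218 to 3093 in stimulated mice, with 0 of 6 genes higher in stimulated mice and 0 passing either threshold. Their medians in controls and stimulated mice were 1553 and 1453 CPM in numbers 1 to 11, and 2621 and 2307 in numbers 12 to 23. Within the runs, summed excitatory neuron markers had medians of 1686 CPM in controls and 1733 in stimulated mice (numbers 1 to 11) and of 2814 and 3341 (numbers 12 to 23). Inhibitory neuron markers had 933 and 998, and 735 and 793. In each of these lists 5 of 6 genes were above 0 in log2 fold change, 2 had an unadjusted p under 0.05 and 0 passed the adjusted threshold (edgeR). All 6 oligodendrocyte markers were lower in stimulated mice at an unadjusted p under 0.05 and 0 passed the adjusted threshold (edgeR), their sum ranging from 2967 to 18568 CPM in controls and from 2163 to 5504 in stimulated mice. The part of these lists in the values of the members was not tested.

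**Figure D4:**
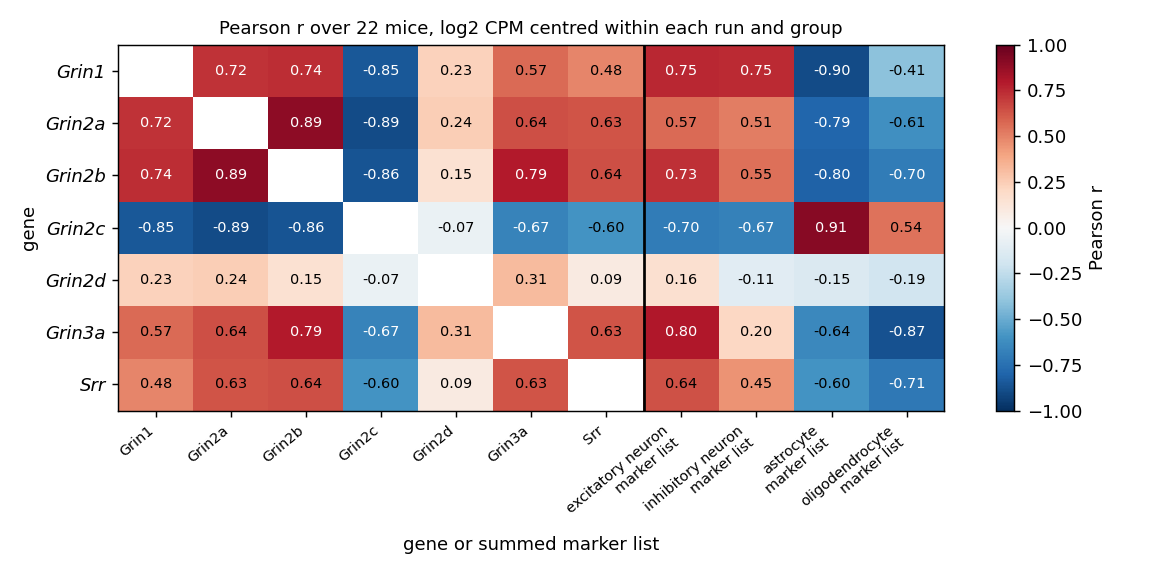
Pearson correlation over 22 mice of log2 CPM centred within each run and group, between the 7 tested genes (left of the line) and with 4 summed marker lists (right). Colours run from -1 (blue) to 1 (red) and each cell prints its r. The Grin2c row is blue against the other subunits with large values and red against astrocyte markers (0.91), and the Grin2d row is pale throughout.

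The genes most like each member were sought among 14525 genes with a mean of at least 1 CPM, by the Pearson correlation of log2 CPM with run and group fitted out, over 22 mice. Grin2a and Grin2b shared their closest gene, D430041D05Rik, at r = 0.94 and 0.96, and Grin2b was itself among the 3 closest to Grin2a at 0.90. Grin1 was most like Trim3 (0.94), Dnm1 (0.94), which encodes the dynamin of synaptic vesicle recycling, and Maged1 (0.93). Grin2c was most like Itgb5 (0.96), Kif5a (0.96) and Acsbg1 (0.95). Grin3a was most like Zdhhc22 (0.95), Scn3b (0.92), a sodium channel beta subunit, and Mas1 (0.91), and Srr most like Kbtbd7 (0.93), Cul3 (0.91) and Zfp451 (0.91). Grin2d, with few counts as given above, had no close match, with Dop1a (0.79), Krba1 (0.72) and D030028A08Rik (0.70) as its nearest.

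Other genes of the pathway were read from lists that hold 60 genes, of which 54 were tested, and 0 passed the adjusted threshold between stimulated and control mice, as for 0% of all genes. Of the 54, 35 had a log2 fold change above 0 and 19 below, against 52.6% above 0 over all genes, and 2 had an unadjusted p under 0.05, against 11.5%. These were Kif17, the kinesin that carries GluN2B-containing vesicles along dendrites, and Calm3, one of the calmodulin genes, whose protein binds GluN1 and reads out calcium entry. Kif17 averaged 28.7 ± 4.45 CPM (SD) over the 12 controls and 33.9 ± 5.29 over the 10 stimulated mice, with a log2 fold change of 0.20 ± 0.071 (adjusted p = 0.349, edgeR). Calm3 had 828 ± 102 and 897 ± 99.3 CPM, with 0.14 ± 0.064 (adjusted p = 0.412, edgeR).

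Among the 5 genes of serine and glycine synthesis (Phgdh, Psat1, Psph, Shmt1 and Shmt2), which supply the coagonists, 4 had a log2 fold change below 0 and the median was -0.10. Of 8 tested genes of coagonist transport and breakdown 5 were below 0 (median -0.073), among them Slc6a9, the glial glycine transporter (-0.20 ± 0.14), and Gldc, of the glycine cleavage system (-0.21 ± 0.14), while Slc1a4, a serine exchanger, was at 0.081 ± 0.053. Both partners that bind serine racemase, Pick1 and Golga3, were above 0. The kynurenine pathway, which yields the antagonist kynurenic acid and the agonist quinolinic acid, was sparse, with 8 of 13 genes tested, 4 above and 4 below 0. Of the 13 scaffold and trafficking genes 9 were above 0 (median 0.058), and Dlg4, which encodes PSD-95, was at 0.073 ± 0.085. Of 18 kinases, phosphatases and effectors 16 were above 0 (median 0.085). Camk2a, the kinase that docks on GluN2B, was at -0.024 ± 0.13, and Fyn, which phosphorylates GluN2B, was at -0.035 ± 0.047. The smallest adjusted p in any of these lists was 0.349.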

How the data were processed

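RNA from bulk ACC of 12 control and 10 stimulated mice was amplified as full-length cDNA and sequenced from one end. The authors used cutadapt 1.10 to trim reads and STAR 2.5.3a to place them on mm10, and counted them per gene of Ensembl 95 with HTSeq 0.6.1p1. They deposited whole-number counts per gene and mouse, which were used here, and the same counts divided by size factors, a signal per mouse that was not used. Columns of the authors' own comparison (log2 fold changes, p-values and adjusted p-values from DESeq2 1.22.1 with batch and RNA integrity) were not used either. No 2 libraries were alike within counting noise (231 pairs, chi-square per gene of at least 11.9 on average). Amplified cDNA without molecular identifiers measures reads, not molecules.

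Groups and numbers came from the labels. The deposited counts were tested with edgeR 4.0.16 in R 4.3.3 (TMM, quasi-likelihood test, terms for run of library numbers and group, Benjamini-Hochberg over the 17524 genes that reached 10 counts in 10 mice or more). Standard errors and 95% intervals are those of the log2 fold change. RPKM used exon lengths of GENCODE M21, in which 37772 of 37786 gene IDs were found. Ratios and correlations used log2 CPM with a prior count of 2 (Python 3.11.15, scipy 1.17.1). Alternatives were group alone, 1 surrogate variable from sva 3.50.0, DESeq2 size factors, voom with quality weights per sample (limma 3.58.1), the Wald test of DESeq2 1.42.0, other count minimums, the replicate number as a block, each run alone, and leaving out controls 9 and 11. The edgeR, limma and DESeq2 tests were tested on simulated data.

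The genes named are all 9 members, pathway genes at an unadjusted p under 0.05 (at most 3 per list and direction) and the 3 genes most like each member. Further pathway genes are named for their role, after their values were seen. The members, lists, run split and alternatives were chosen with earlier results of these data known, and the correlations among members and with marker lists were added after values had been seen.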

Additional observations from a re-analysis of the deposited data

Results flagged for a closer look

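Grin2c in the 4 stimulated mice of library numbers 1 to 11 held a mouse that stood apart from the rest. Stimulated mouse 1 had 32.2 CPM, and the other 3 lay between 21.7 and 23.3 CPM, so that the gap to the nearest mouse was 0.843 of the range of the 4 values. Of 35 sets of 4 to 10 mice examined this way it was the only one that exceeded the 95% critical value, and chance gives about 1 in 20. The controls of the same run included 3 mice between 31.2 and 34.9 CPM, so the value lay within the range of the controls. Its cause was not tested.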

How the results depend on the processing

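The count of members at an adjusted p under 0.05 was 0 in every fit of the group difference, and their smallest adjusted p in any fit was 0.388. Of 84 alternative values of member fold changes 12 changed sign, and none passed the threshold. Grin1 kept its sign in all 12 alternatives, between 0.052 and 0.20. Grin2a turned to -0.015 with 1 surrogate variable, -0.024 with limma voom, -0.00084 with at least 10 counts in every mouse, -0.051 without controls 9 and 11 and -0.13 in library numbers 1 to 11 alone. Without controls 9 and 11 Grin3a was at -0.014 and Srr at -0.032. In numbers 1 to 11 alone Grin2b was at -0.051, Grin3a at -0.044 and Srr at -0.091, and in numbers 12 to 23 alone Grin2d was at -0.075. The cause was not tested.

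Over all genes, 0 were called with the run fitted in edgeR, 33 by the DESeq2 Wald test, 1 by limma voom and 1 without controls 9 and 11. The 2015 genes at an unadjusted p under 0.05 became 632 with group alone, 3687 with no count minimum, 1339 without controls 9 and 11, 974 in numbers 1 to 11 alone, 2165 in numbers 12 to 23 alone, 2910 with 1 surrogate variable and 2860 with limma voom.

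Both groups carry replicate numbers 1 to 10, which belong to different animals. Same-numbered mice had a mean correlation of 0.308 in their deviations from their group's mean (lowest -0.367, 8 of 10 over 0.1) and other mice one of -0.0275. From run and group means the average was 0.0511, with 3 of 10 over 0.1. The numbers were therefore not taken as pairs, and 2 of 10 stimulated mice correlated best with their own number. The replicate block with the run kept gave 1 member at an unadjusted p under 0.05, Grin2b at 0.21 (p = 0.0300, adjusted p = 0.388, edgeR). The replicate block in place of the run took the count of genes past the unadjusted threshold to 1292, with 1 member (Grin3a, 0.29, adjusted p = 0.670), and put Grin2c at 0.17.

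Grin2a to Grin2b stayed between -0.13 and -0.097 under the 5 alternatives for the ratios (adjusted p from 0.234 to 0.318, permutation). Grin2b to Grin1 was -0.012 as a plain difference of group means, with the run ignored and labels exchanged over all mice. It was -0.018 without controls 9 and 11 and -0.066 with the replicate block. Grin2d to Grin2b was 0.0059 without controls 9 and 11 and 0.042 with the block, and Grin3a to Grin1 was -0.071 without controls 9 and 11. Levels moved with the scale. By the longest transcript Grin1 was at 43.2 RPKM, Grin2a at 7.21, Grin2d at 1.75, Grin3a at 9.09 and Srr at 19.4. As TPM (shares of the summed length-scaled counts) the means were 72.1 for Grin1, 21.9 for Grin2a, 28.6 for Grin2b, 30.4 for Grin2c, 5.37 for Grin2d, 21.1 for Grin3a, 0.112 for Grin3b, 58.7 for Srr and 0.0516 for Dao.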
